A study of Homo sapiens with 4 samples.

Results

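Transcripts of serine and one-carbon enzymes were measured by RNA sequencing in NUDUL1, a cell line from a human lymphoma of the germinal center B cell-like class (GCB-DLBCL). The 10 genes described here, PHGDH, PSAT1, PSPH, SHMT1, SHMT2, MTHFD1, MTHFD2, MTHFD1L, MTHFD2L and ALDH1L2, were chosen by symbol as enzymes of serine synthesis and of the folate cycle, with the knowledge that PHGDH and ALDH1L2 differed in opposite directions between the genotypes. All 10 were found among the 25066 genes listed, and all 10 passed the filter on low values, which left 16945 genes. Because the choice rested on the contrast between genotypes, the differences of these 10 genes are given as a description and no p value is attached to them.

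Both groups were made from NUDUL1 cells with doxycycline-inducible Cas9, derived from a single-cell clone, and transduced with the thromboxane receptor Tbxa2r. The control group expressed a control sgRNA and the GNA13-deficient group an sgRNA against GNA13, which encodes the G protein subunit Gα13, with 1 sgRNA per group. Both groups were treated for 24 h with 10 nM U46619, a stable thromboxane analog that acts on Tbxa2r, so no untreated cells were compared. Each group had 2 libraries, and since the labels say only that cells were treated in duplicate, p values measure the spread between these libraries, which may be technical.

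Serine is made from a glycolytic intermediate by 3 enzymes in a row, PHGDH, PSAT1 and PSPH. The SHMT enzymes then split serine into glycine and a one-carbon unit carried by tetrahydrofolate, SHMT1 mainly in the cytosol and SHMT2 in mitochondria. In mitochondria MTHFD2 or MTHFD2L oxidizes the folate-bound unit and MTHFD1L releases it as formate, MTHFD1 in the cytosol takes formate up again for purine and thymidylate synthesis, and ALDH1L2 burns the mitochondrial unit to carbon dioxide with formation of NADPH. Proliferating lymphocytes are known to draw on this pathway for nucleotides.

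Values are normalized reads on the log2 scale, as the authors deposited them, and a difference is the mean of the GNA13-deficient libraries minus the mean of the control libraries on that scale. Mapped reads came to between 29209544 and 31537955 per library, and 3 reads, the limit that a count of 0 allows, corresponded to log2 values from 1.56 to 1.69. GNA13 mRNA itself was 12.46 and 12.45 in the control libraries and 13.10 and 13.11 in the GNA13-deficient libraries, so the libraries labelled GNA13-deficient held more of it rather than less, and each direction below rests on the labels. The 6 B cell markers examined, among them CD79A and PAX5, had log2 values from 10.21 to 14.33 in all libraries, whereas the T cell markers CD3D, CD3E and CD2 were at 0. Summed over 3 myeloid markers, RPM (reads scaled to mapped reads) were 3.20 to 3.39 in control and 0.707 to 0.796 in GNA13-deficient libraries, with CD14 at 3 reads or fewer in all. The sums were 600 to 650 and 524 to 557 for 4 germinal center markers, 9.35 to 9.61 and 2.75 to 2.96 for 2 plasma cell markers, and 1.54 to 1.59 and 3.42 to 3.54 for 2 stromal or epithelial markers, in the same order. The germinal center sum was carried by MME, at -0.02, while BCL6 fell by 2.49 and LMO2 by 3.70 on the log2 scale (limma adjusted p = 0.00085 and 0.00169). The part of these shifts in the results below was not tested. Cells were measured in bulk, so fewer cells that express a gene and less RNA per cell cannot be told apart.

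With a threshold of 0.05 on the adjusted p (limma, Benjamini-Hochberg method), 6 of the 10 enzymes were higher in the GNA13-deficient libraries, 1 was lower and 3 did not pass. Over all genes tested, 29.7% passed, 13.1% higher and 16.6% lower. The libraries of the genotypes did not overlap for 9 of the 10 enzymes, against 65.3% of all genes tested (31.3% higher and 34% lower). Without the filter on low values or without the variance trend, 3 of the 10 passed, and with any 1 library left out limma passed no gene at all (5257 to 5600 at an unadjusted p under 0.05). Since the genes were chosen with this contrast known, the count describes them and supports nothing further. The median difference of the 10 was 0.37, against -0.02 over all genes tested.

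**Figure D1:**
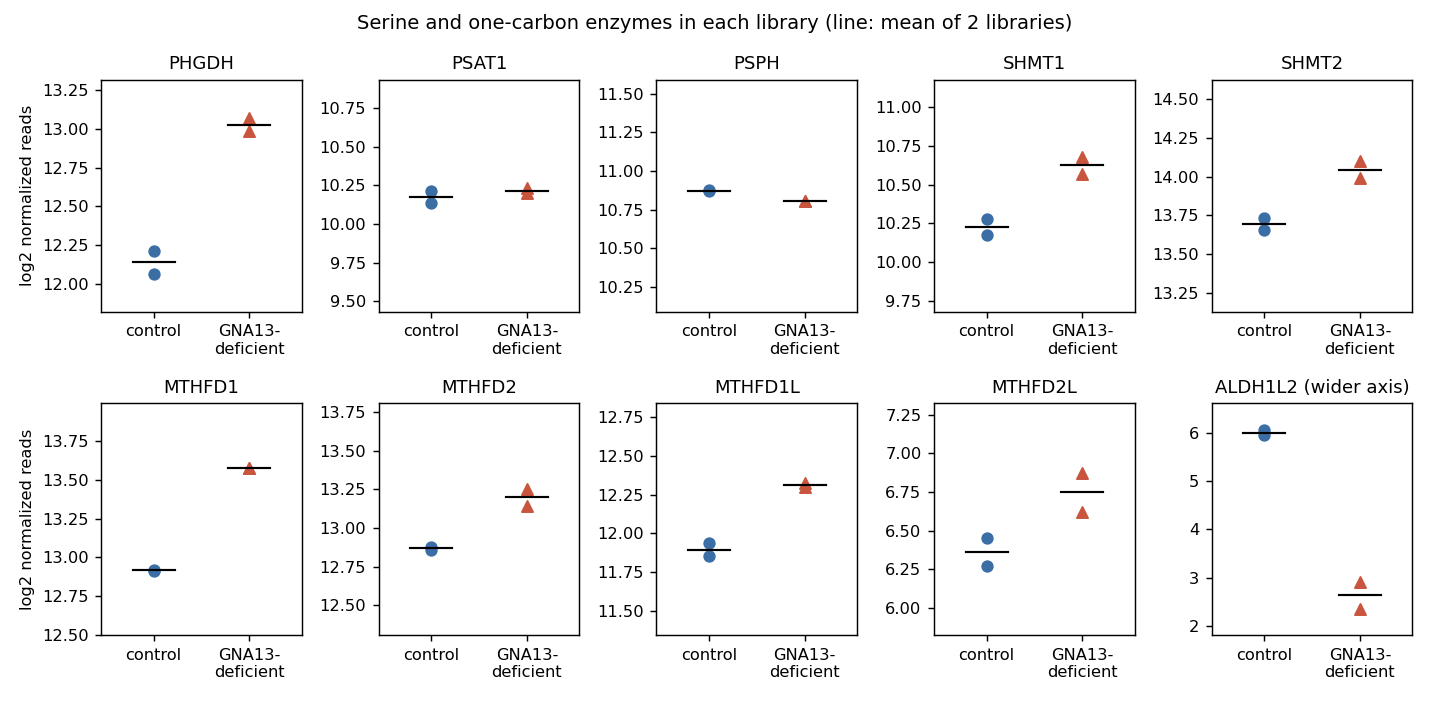
Log2 normalized reads (y axis) of each of the 10 enzymes in the 2 control libraries (circles) and the 2 GNA13-deficient libraries (triangles), with the mean of each genotype as a line; each panel has its own y range, equally wide in all but ALDH1L2. The genotypes overlap for PSAT1 only, and ALDH1L2 goes from about 6.00 to 2.64 in mean.

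To show where the enzymes that were higher together begin, the bases before the transcription start are printed for PHGDH, which differed most among those higher, and for MTHFD1 and MTHFD1L, the genes among these enzymes whose promoters held a match to a searched motif. The sequences are from RefSeq (GRCh38.p14), 160 bases up to the base before the start, 5′ to 3′ in the direction of the gene, with motif matches in capitals. They lie at chr1:119711774-119711933, chr14:64388193-64388352 and chr6:150866326-150866485, all on the plus strand.
PHGDH: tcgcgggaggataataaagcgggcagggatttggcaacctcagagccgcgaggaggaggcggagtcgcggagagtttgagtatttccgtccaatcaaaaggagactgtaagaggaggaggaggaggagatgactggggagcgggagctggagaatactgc
MTHFD1: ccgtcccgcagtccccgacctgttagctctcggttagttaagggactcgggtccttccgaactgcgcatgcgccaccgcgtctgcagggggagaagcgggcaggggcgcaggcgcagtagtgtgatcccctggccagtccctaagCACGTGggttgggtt
MTHFD1L: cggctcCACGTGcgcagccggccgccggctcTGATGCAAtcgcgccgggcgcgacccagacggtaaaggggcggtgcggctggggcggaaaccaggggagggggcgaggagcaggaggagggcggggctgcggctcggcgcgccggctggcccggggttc
The motifs were TGATGNAA, the core of the C/EBP-ATF response element bound by ATF4, CACGTG, the E-box bound by MYC and its partners, and TTTNNCGC, a core of E2F sites, each searched on both strands from 250 bases before to 50 bases after the start. An entry was matched for 7 of the 10 enzymes; PSPH, SHMT2 and ALDH1L2 were not matched. MTHFD1L held both a CACGTG and a TGATGNAA, starting 154 and 129 bases before the start and not overlapping each other, and MTHFD1 held a CACGTG 15 bases before it. Over all 35116 promoters of the same length, 7.26% held CACGTG, 3.62% held TGATGNAA and 6.89% held TTTNNCGC, which none of the 7 enzymes held. A match describes these letters and says nothing of binding in these cells. In the 250 bases before the start, GC content was 51.2% in PHGDH and 76.0% in MTHFD1L, the lowest and highest of the 7, against a median of 58.0% over all promoters.

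PHGDH, which catalyses the first and committed step of serine synthesis, is encoded on chromosome 1 (GRCh37, 120191034 to 120286841, plus strand). Its log2 values were 12.06 and 12.21 in the control libraries and 12.98 and 13.07 in the GNA13-deficient libraries. Both GNA13-deficient libraries lay above both control libraries, with 0.77 between the nearest of them. The difference was 0.89 (standard error 0.07, n = 2 per genotype), or 1.86-fold, which put PHGDH at place 1040 from the top among the differences of the 16945 genes tested. It rested on 4205 and 4819 reads in control and 7895 and 8011 reads in GNA13-deficient libraries, for which counting alone gives a standard error of 0.02.

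The next enzymes of the same route did not pass the threshold. PSAT1, which transaminates the product of PHGDH, was at 10.13 and 10.21 in control and 10.20 and 10.23 in GNA13-deficient libraries, and the genotypes overlapped. Its difference was 0.04, with a 95% interval from limma of -0.12 to 0.20. PSPH, the phosphatase that releases free serine, was at 10.87 in both control libraries and 10.81 in both GNA13-deficient libraries, a difference of -0.07 with an interval from -0.20 to 0.06. PSAT1 has 4 annotated pseudogenes and PSPH has 1, none of them listed among the genes measured. How reads that fit both a gene and its pseudogene were counted is not stated.

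Both serine hydroxymethyltransferases were higher in the GNA13-deficient libraries, by similar amounts. SHMT2, the mitochondrial enzyme (chromosome 12, 57623356 to 57628718, plus strand), was at 13.65 and 13.74 in control and 13.99 and 14.10 in GNA13-deficient libraries, a difference of 0.35 (standard error 0.07). SHMT1, the cytosolic enzyme (chromosome 17, 18231174 to 18266877, minus strand), was at 10.18 and 10.28 in control and 10.57 and 10.68 in GNA13-deficient libraries, a difference of 0.40 (standard error 0.07). For both genes the libraries of the genotypes did not overlap, and under quantile normalization SHMT2 was 0.18 and no longer passed. SHMT1 overlaps SMCR8 and SHMT2 overlaps NDUFA4L2 on the opposite strand, and the counting is not stated to use strand.

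The balance of the pair was taken as a ratio within each library. As a log2 ratio of reads, SHMT2 to SHMT1 was 3.48 and 3.46 in control and 3.42 and 3.42 in GNA13-deficient libraries, a difference of -0.05. Per length of the longest transcript, SHMT2 held 90.0% and 89.9% of the summed level of both enzymes in control libraries and 89.6% in each GNA13-deficient library. The longest transcript annotated for SHMT1 has 1 exon and 2756 bases, against a longest coding length of 1449 bases. Over coding length the shares were 91.4% and 91.3% in control and 91.1% in each GNA13-deficient library. With the longest transcript, the shift of -0.31 percentage points was larger than the spread between libraries of 1 genotype. Counting alone gives a standard error of 0.04 for the difference of SHMT1, near the size of the ratio difference. Counting error could thus give a shift of this size, and the spread between 2 libraries does not show that it is real. Under quantile normalization the ratio difference was -0.21 and the shift of the share -1.34 percentage points.

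MTHFD1, the trifunctional cytosolic enzyme, differed second most among the enzymes that were higher (chromosome 14, 64854749 to 64930175, plus strand). It was at 12.91 and 12.92 in control and 13.58 and 13.58 in GNA13-deficient libraries, a difference of 0.66 (standard error 0.05), or 1.58-fold. The libraries of each genotype lay within 0.01 of each other.

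Its mitochondrial relative MTHFD1L, which makes formate for export (chromosome 6, 151186815 to 151423023, plus strand), was at 11.85 and 11.94 in control and 12.33 and 12.30 in GNA13-deficient libraries, a difference of 0.42 (standard error 0.06). The log2 ratio of MTHFD1L to MTHFD1 was -1.06 and -0.98 in control and -1.25 and -1.28 in GNA13-deficient libraries, without overlap. The ratio thus moved by -0.24 toward the cytosolic enzyme.

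MTHFD2, the mitochondrial dehydrogenase that is known to be high in dividing and transformed cells (chromosome 2, 74413299 to 74444692, plus strand), was at 12.88 and 12.86 in control and 13.14 and 13.25 in GNA13-deficient libraries. The difference was 0.33 (standard error 0.06), without overlap, and with quantile normalization it was 0.20 and no longer passed the threshold. MTHFD2 has 7 annotated pseudogenes, none of them listed among the genes measured, so its level is uncertain where reads fit a pseudogene as well. MTHFD2L, a mitochondrial isozyme of the same step (chromosome 4, 74979891 to 75168816, plus strand), was at 6.27 and 6.45 in control and 6.62 and 6.87 in GNA13-deficient libraries. Its difference of 0.39 was as large as that of MTHFD2 but had a standard error of 0.20, from 76 and 89 reads in control and 96 and 109 reads in GNA13-deficient libraries, and it did not pass. Its 95% interval ran from -0.12 to 0.90, and under quantile normalization its difference was 0.78 and passed. Per length of the longest transcript, MTHFD2 held between 97.6% and 97.9% of the summed level of both in all 4 libraries. Over coding length it held between 98.8% and 99.0%. The genotypes overlapped in this share as deposited, and its shift was -0.89 percentage points under quantile normalization.

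ALDH1L2, the mitochondrial enzyme that oxidizes formyltetrahydrofolate (chromosome 12, 105413562 to 105501421, minus strand), went the other way from every enzyme above that passed the threshold. It was at 6.05 and 5.95 in control and 2.36 and 2.91 in GNA13-deficient libraries, with 3.04 between the nearest libraries of the genotypes. The difference was -3.36 (standard error 0.36), the place 315 from the bottom among the 16945 genes tested. In reads it had 65 and 63 in the control libraries and 5 and 7 in the GNA13-deficient libraries. Per mapped read this was 10.5-fold lower, with an exact binomial interval of 5.81-fold to 20.9-fold that covers counting error only. The gene is overlapped by NOPCHAP1 and WASHC4, so reads in the shared stretch may be uncertain. ALDH1L1, the cytosolic enzyme of the same reaction, was listed at 0 in all 4 libraries, so no ratio between the partners was formed.

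**Figure D2:**
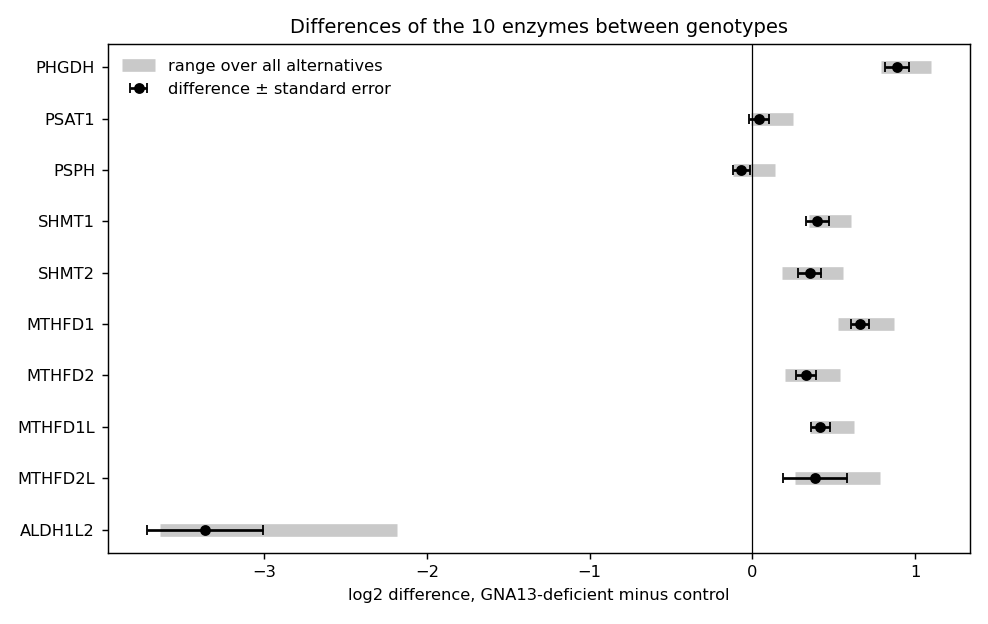
Log2 difference between GNA13-deficient and control libraries (x axis) for each of the 10 enzymes, as a point with its standard error from limma; the grey bar spans all alternative settings, including each fit without 1 library. PHGDH, SHMT1, SHMT2, MTHFD1, MTHFD2, MTHFD1L and MTHFD2L stay above 0 and ALDH1L2 below it, whereas the bars of PSAT1 and PSPH cross 0.

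Among the 10 enzymes and the alternatives run, direction depended on the scaling between libraries for PSAT1 and PSPH only. With each library centred on its median, which moved the median of all genes from -0.02 to 0.18, PSPH was 0.14 and PSAT1 0.25. Scaled to total mapped reads PSAT1 was -0.0067. PHGDH ranged from 0.79 to 1.10 over the alternatives that kept all 4 libraries, and MTHFD1 from 0.52 to 0.87. ALDH1L2 was -2.18 with a pseudocount of 10 and -3.17 with a pseudocount of 1, since a pseudocount shrinks the change of a gene with few reads.

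Levels were compared between the enzymes per length, as reads per kilobase of the longest annotated transcript, scaled to mapped reads (RPKM). SHMT2 was the highest, at 127 and 129 in control and 154 and 161 in GNA13-deficient libraries. PHGDH followed, at 45.3 and 48.1 in control and 82.4 and 84.9 in GNA13-deficient libraries. The next 3, MTHFD1, MTHFD2 and MTHFD1L, lay between 35.8 and 58.0, and neighbours from PHGDH down to MTHFD1L overlapped in their ranges over the 4 libraries.

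PSPH came below these, between 25.7 and 29.0, and did not overlap its neighbours. PSAT1, between 17.1 and 17.3, lay within the range of SHMT1, between 14.1 and 18.7. MTHFD2L, between 0.82 and 1.15, and ALDH1L2, between 0.020 and 0.27, were last and separate from the rest. The order depends on the length used: over coding length MTHFD2 came second, between 228 and 291, overlapping SHMT2 at 287 to 363, and PSPH came before MTHFD1L. SHMT2 was first and MTHFD2L and ALDH1L2 last with the longest transcript, the median over transcripts and the coding length alike.

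**Figure D3:**
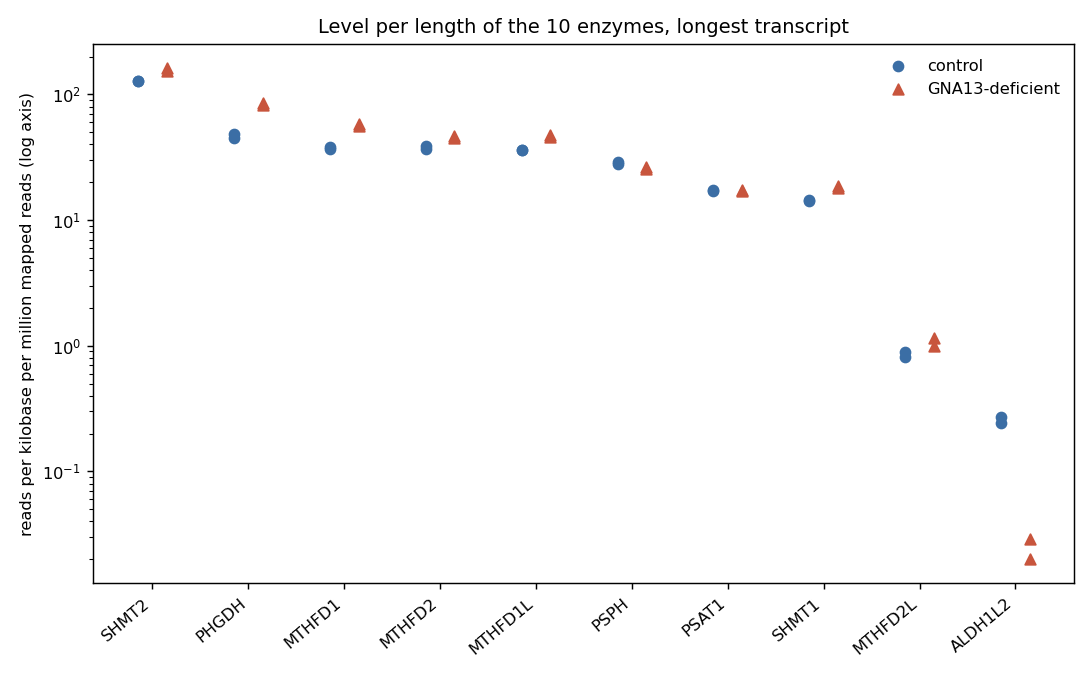
RPKM over the longest transcript (y axis, log scale) for the 10 enzymes in order of their mean over 4 libraries, with control libraries as circles and GNA13-deficient libraries as triangles. SHMT2 is highest in every library at 127 or more, and MTHFD2L and ALDH1L2 lie at 1.15 or less.

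The other genes of the pathway were taken from 7 lists of 68 genes, of which 62 were tested. In limma's test 18 of them passed as higher and 7 as lower, 40.3% in all against 29.7% of all genes tested. Their median difference was 0.12. The lists were chosen with earlier results of these data known, so this share describes the lists and supports nothing further. Without the filter 12 passed, and among the genes named below SLC19A1, SLC25A32, GLDC, AMT, BHMT, GCLM and SESN2 then did not. Without the variance trend 13 passed, and SLC19A1, SLC25A32, MTRR, BHMT, GCLM and SESN2 did not. The call of SESN2 was also lost when scaled to mapped reads, and that of BHMT with voom.

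Folate carriers and enzymes of folate retention had 3 higher and 1 lower of 6 tested, or 66.7%, with a median of 0.32. GGH, which removes the glutamate tail of folates, rose by 1.17 (standard error 0.10, adjusted p = 0.00253 from limma). SLC19A1, the reduced folate carrier of the plasma membrane, rose by 0.40, while SLC25A32, the mitochondrial folate carrier, fell by 0.37 (adjusted p = 0.0172 and 0.0186 from limma). The call of SLC25A32 was lost with median centring.

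Enzymes of folate reduction and use had 3 higher and none lower of 9 tested, or 33.3%, near the 29.7% of all genes tested. TYMS, which makes thymidylate with a folate-bound carbon, rose by 1.00 (standard error 0.06, adjusted p = 0.00157 from limma), and it has 2 annotated pseudogenes. The purine enzymes GART and ATIC, which use formyl groups from folate, were at 0.12 and 0.17 and did not pass.

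Glycine cleavage, the mitochondrial system that also feeds one-carbon units into folate, had 2 higher and 1 lower of 4 tested, or 75%. AMT rose by 1.38 and GCSH by 0.75 (adjusted p = 0.0114 and 0.00373 from limma). GCSH has 6 annotated pseudogenes, none of them listed among the genes measured. GLDC, the decarboxylase that starts the reaction, fell by 1.63, from 59 and 46 reads in control to 16 and 16 reads in GNA13-deficient libraries (adjusted p = 0.0183 from limma). DLD, which is shared with other dehydrogenase complexes, was at 0.09 and did not pass.

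In the methionine cycle 1 gene was higher and 1 lower of 10 tested, or 20%, below the 29.7% of all genes tested. The median was -0.0028, or 0.10 with values under 3 reads set to that limit. MTRR, which reactivates methionine synthase, fell by 0.38 (adjusted p = 0.0114 from limma), a call lost with median centring. BHMT had 1 and 2 reads in control and 6 and 8 in GNA13-deficient libraries, a ratio of 4.74 with an exact binomial interval of 1.32 to 25.7 for counting error only.

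CBS, which condenses serine with homocysteine at the entry of transsulfuration, had the lowest difference among the genes of that route and of glutathione synthesis. It was at 7.11 and 7.31 in control and 3.85 and 4.11 in GNA13-deficient libraries, so that both GNA13-deficient libraries lay below either control library. The difference was -3.24 with a standard error of 0.25, 9.42-fold lower (limma adjusted p = 0.00218), beside -3.36 for ALDH1L2. GCLM, the modifier subunit of glutamate-cysteine ligase, rose by 0.51 (adjusted p = 0.0146 from limma), and the other 3 genes of this list, CTH, GCLC and GSS, did not pass.

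Among serine transporters and enzymes that consume serine, 3 were higher and 3 lower of 12 tested, or 50%, with a median of -0.18. SRR, serine racemase, rose by 0.85, and SLC1A4, a carrier of serine and alanine, rose by 0.78 (adjusted p = 0.00521 and 0.00198 from limma). SPTLC3, a subunit of serine palmitoyltransferase, had 5 and 4 reads in control and 0 in both GNA13-deficient libraries, at least 1.43-fold lower when a limit of 3 reads per library is used. It passed the filter through the control libraries alone, so its place among the 3 lower genes supports nothing. SFXN1, the mitochondrial serine carrier, was at 0.10 and did not pass.

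PHGDH, PSAT1, MTHFD2 and ALDH1L2 are among the known targets of ATF4, the transcription factor of the amino acid response. These 4 enzymes showed differences of 0.89, 0.04, 0.33 and -3.36. They may not be the only ATF4 targets among the 10, and PSPH, SHMT2 and MTHFD1L were at -0.07, 0.35 and 0.42. Of 16 other amino acid response genes tested, 5 were higher and none lower, or 31.2%, near the 29.7% of all genes tested, with a median of 0.27. The count of calls in this list ranged from 2, without the filter or the trend, to 10 with median centring, and was 8 with the replicate block. GPT2, an alanine transaminase, rose by 0.69, and DDIT4 and SESN2, inhibitors of mTORC1 signaling, rose by 0.67 and 0.36 (adjusted p = 0.00316, 0.00728 and 0.0231 from limma). ATF4 itself was at 0.24 and ASNS, which makes asparagine, at -0.10, and neither passed.

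**Figure D4:**
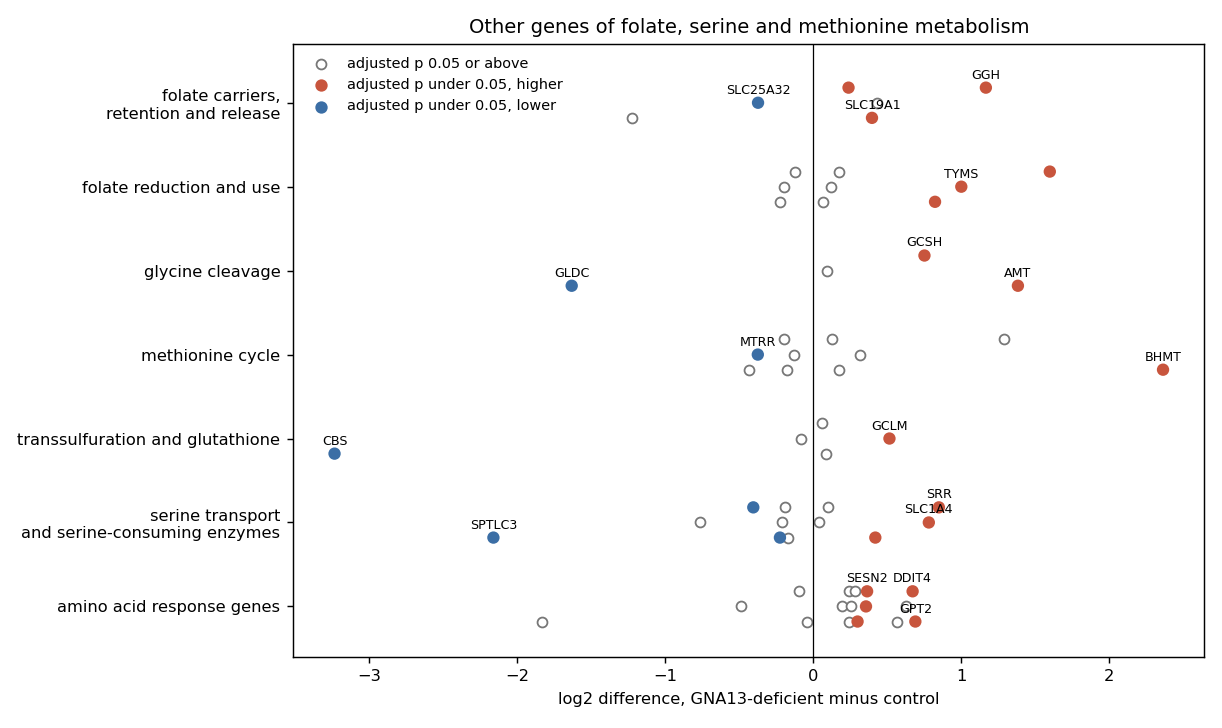
Log2 difference between GNA13-deficient and control libraries (x axis) for the 62 tested genes of 7 pathway lists (rows), filled where the adjusted p from limma was under 0.05, in red if higher and blue if lower, and open otherwise; dots are offset vertically for legibility. CBS at -3.24 lies far below the rest of its list.

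Likeness to PHGDH and ALDH1L2 over the 4 libraries was measured as the Euclidean distance between log2 deviations from each gene's own mean, among 12240 genes with a mean of at least 4. Among the 3 nearest to PHGDH were DSCC1 (distance 0.022) and C1orf198 (0.040), with differences of 0.90 and 0.93. Nearest to ALDH1L2 were ZNF681 (0.11), TCEAL1 (0.14) and COBLL1 (0.14), with differences of -3.27, -3.44 and -3.25. With 4 libraries in 2 groups, such likeness mostly restates a difference of the same size.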

How the data were processed

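RNA sequencing of 4 NUDUL1 libraries was analysed, 2 per genotype as titled. Per the authors' methods, STAR was run against hg19, and the authors deposited log2 values of normalized reads; the submitters' processing notes name HTSeq, and the annotation and the normalization method are not given in the sources used here. A row of total mapped reads was used for depth and for 1 scaling alternative only. No column was left out. On the linear scale, all nonzero values up to 400 reads were whole reads times a constant per library (100%, within 0.1 read), and these recovered reads gave depth and levels per length. In control replicate 2 a single read falls below the lowest listed value, 0, so a 0 there can stand for 1 read.

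Genes above 0 in at least 2 libraries were fitted on the deposited log2 values with limma 3.58.1 in R 4.3.3 (lmFit, eBayes with trend), with genotype as term (2 residual degrees of freedom), with Benjamini-Hochberg adjustment over all genes tested. The pipeline was tested on simulated data. Members and lists were chosen with earlier results of these data known. Named genes were the 10 members, up to 3 per list with the largest difference among those passing, ALDH1L1, GNA13 and the 3 nearest genes by likeness; GART, ATIC, DLD, CTH, GCLC, GSS, SFXN1, ATF4 and ASNS were named after their values were seen. Some genes that this rule names are not reported here. Lengths are from GENCODE v44 on GRCh37, the assembly of hg19. Annotated pseudogenes, none of them listed among the genes measured, also exist for SHMT1, MTHFD1, GCSH, GLDC, ATF4, ASNS and GNA13. The spans of SHMT1, SHMT2, MTHFD1, MTHFD2, MTHFD1L, MTHFD2L and ALDH1L2 overlap those of other annotated genes. Per the authors' methods the library kit was stranded, but no strand setting of the counting is stated. Whether reads in bases shared with genes on the opposite strand were kept apart is thus not known. The alternatives tried included no filter, keeping genes with a mean above the median, pseudocounts of 1 and 10, quantile normalization, median centring, scaling to total mapped reads, the replicate block, no trend, a robust prior, other lengths and each library left out; voom on recovered reads and a filter of 2 reads in 2 libraries were chosen after seeing the data.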

Additional observations from a re-analysis of the deposited data

How the results depend on the processing

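Without the filter, 1999 genes, 3 of the 10 enzymes and 12 other pathway genes passed, against 5037, 7 and 25; without the variance trend these were 2718, 3 and 13. ALDH1L2, SHMT1, SHMT2 and MTHFD2 were lost in the former, and MTHFD1L in place of ALDH1L2 in the latter. Quantile normalization passed 6 enzymes, without SHMT2 and MTHFD2 and with MTHFD2L, and gave a median of 0.28 for the enzymes and median centring 0.58, with 69.1% of 6235 calls higher against 44.03% as deposited. Under quantile normalization the log2 ratio differences were -0.21 for SHMT2 to SHMT1, -0.59 for MTHFD2 to MTHFD2L and -0.17 for MTHFD1L to MTHFD1, and the share differences -1.34 and -0.89 percentage points for SHMT2 and MTHFD2. PSPH reversed to 0.14 under median centring, and PSAT1 to -0.0067 when scaled to total mapped reads and -0.0068 with voom. The causes were not tested.

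With 1 library left out, 1 residual degree of freedom remained, the lone library was assumed to vary like the other genotype, and limma called 0 genes, 0 enzymes and 0 other pathway genes in each of the 4 fits; at an unadjusted p under 0.05 there were 5257 to 5600 genes and 6 or 7 enzymes, so these fits say nothing about stability of the calls. The median of the enzymes ranged from 0.29 (without GNA13-deficient replicate 2) to 0.42. The ratio difference of MTHFD2 to MTHFD2L ranged from -0.15 to 0.043 and its share difference from -0.23 to 0.065, above 0 without control replicate 1 (0.043 and 0.065) and without GNA13-deficient replicate 2 (0.016 and 0.028), so that ratio has no settled direction.

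Deviations of libraries with the same number correlated at 0.45 over 8473 genes, so the replicates may not be independent, but no source pairs them. The cause of this correlation was not tested. With the replicate block 6616 genes and 32 other pathway genes passed, and 7 enzymes as before. Apart from these, the alternatives run kept the direction of the 10 enzymes. With all 4 libraries, calls per list ranged from 2 to 10 for the amino acid response (5 as reported), 1 to 5 for the methionine cycle (2), 2 to 5 for folate reduction and use (3), 1 to 5 for folate carriers (4), 1 to 4 for glycine cleavage (3), 1 to 3 for transsulfuration and glutathione (2), and 3 to 7 for serine transport and use (6). Depth limits ALDH1L2 in GNA13-deficient libraries and MTHFD2L most.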

Other observations

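By reads, SHMT2 was the most abundant of the 10 enzymes, at place 321 and 320 among all genes in the control libraries and 287 and 276 in the GNA13-deficient libraries. PHGDH moved from place 1349 and 1213 in control to 678 and 645 in GNA13-deficient libraries. MTHFD1 went from 655 and 657 to 409 and 420, and MTHFD2 from 672 and 696 to 599 and 552, in the same order of libraries. TYMS, which uses a one-carbon unit to make thymidylate, held place 694 and 671 in control and 329 and 319 in GNA13-deficient libraries. Places compare reads without regard to transcript length.

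ALDH1L2 and CBS, the 2 genes of these lists with the lowest differences, had 12 and 30 reads in the GNA13-deficient libraries together, against 128 and 297 in the control libraries.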
